A study of Mus musculus with 16 samples.

Results

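The enzymes and carriers that take glucose to pyruvate, and pyruvate through the citric acid cycle, were followed in the mouse hippocampus from birth to the fourth week of life. The set holds 43 genes, listed by their place in these pathways, with earlier results of these data known. A gene was found in the array table by its symbol, or by an older alias that shares its Entrez gene number. The table names *Gapdh* as Gapd and *Ldha* as Ldh1, and *Pkm2* is the older name of *Pkm*. Of the 43 genes, 41 had a probe among the 25697 probes analysed here, and 39 were tested. The 39 are 7 genes of the hexose phase of glycolysis, 6 of the triose phase, 1 lactate dehydrogenase, 2 glucose carriers, 8 genes of the pyruvate dehydrogenase complex with its kinases and pyruvate carboxylase, 10 of the citric acid cycle and 5 of the shuttles between cytosol and mitochondrion. *Ldhb* and *Gpi1* were matched by no probe and were not analysed here. The lactate carriers *Slc16a1* and *Slc16a7* had probes that stood above background on no array. Each gene is given by its probe of highest mean signal.

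Total RNA of the hippocampus was measured on 16 Illumina MouseRef-8 v2 beadchip arrays, with 4 arrays in each of 4 groups. The groups were wild-type (WT) mice at postnatal day (P) 1, *Mef2c*-het mice at P1, WT mice at P30 and *Mef2c*-het mice at P30. *Mef2c*-het mice carry 1 conventional allele of *Mef2c* that lacks exon 2, which all their cells share, on the C57BL/6J background, and the WT mice were littermates in the study's breeding scheme. The labels call the *Mef2c*-het mice KO, although 1 WT allele is left, and they give neither sex nor litter. The labels do not say whether samples of a group came from separate mice, so p-values measure the spread between these samples. At P30, the *Mef2c*-het arrays were lower by 0.29 (SE 0.155) and 0.25 (SE 0.171) on the log2 scale at the 2 tested *Mef2c* probes, within the spread between arrays. At P1 the same probes differed by 0.07 (SE 0.155) and -0.0054 (SE 0.171), so no reduction of the *Mef2c* signal was seen there. The position of those probes relative to exon 2 was not checked here. Signals are log2 of the bead intensity after quantile normalization of all 16 arrays together. A difference of 1 is a doubling, and levels of different probes are not compared, since each probe has its own brightness.

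Between 12638 and 14150 probes were detected per array, and the median probe had 36 to 39 beads. A probe was tested when its detection p was under 0.05 on at least 4 arrays, which left 14777 probes. Of the members, 36 were detected on all 16 arrays, 3 on some of them and 2 on none. The members were bright: 31 of 39 lay above the median signal of the tested probes. The arrays of each age fell into a larger and a smaller cluster by the correlation of their whole profiles. The smaller clusters held 5 arrays in all, namely WT P1 replicate 8, *Mef2c*-het P1 replicate 8, WT P30 replicates 6 and 7 and *Mef2c*-het P30 replicate 7. These 5 had the highest background, with a 5th percentile of intensity of 140.0 to 161.4 against 105.8 to 130.8 on the other 11 arrays. Results that rest on them are given with and without them. Of 6 hippocampal subfield markers 5 were tested, and *Calb1* was not above background. *Prox1*, a marker of dentate granule cells, was detected on all 16 arrays, as were *Spink8* and *Wfs1*. *Zbtb20* was detected on 15 and *Neurod6* on 7. At P30, 2 of the 5 were higher and 2 lower in WT, and 2 higher and 3 lower in *Mef2c*-het mice. Of all probes, 28% were higher and 31.7% lower in WT, and 26.9% and 31.4% in *Mef2c*-het mice.

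Glycolysis splits glucose into pyruvate in the cytosol. Hexokinase and phosphofructokinase commit the sugar in the hexose phase, and the triose phase then yields ATP and NADH. Pyruvate is either reduced to lactate or oxidized to acetyl-CoA by the pyruvate dehydrogenase complex, which its kinases switch off, and the citric acid cycle oxidizes the acetyl group. Shuttles such as the malate-aspartate and the glycerol phosphate shuttle carry the electrons of cytosolic NADH into the mitochondrion. The brain of a newborn rodent burns ketone bodies beside glucose and comes to depend on glucose as it matures.

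To show what lies before the genes that moved most, the 250 bases upstream of the annotated transcription start are printed for the members with the largest rises and for both members that were lower at P30 in both genotypes, 5′ to 3′ on the gene's strand, from RefSeq on GRCm38.p6. Capitals mark ACGTG and GCGTG on either strand, both forms of the core that hypoxia-inducible factors bind. The windows are *Pfkp* at chr13:6648772-6649021 (minus strand), *Eno2* at chr6:124769674-124769923 (minus strand), *Aldoa* at chr7:126800448-126800697 and chr7:126799255-126799504 (minus strand, the first and the second of 3 annotated starts), *Hk2* at chr6:82774455-82774704 (minus strand) and *Ldha* at chr7:46845554-46845803 (plus strand, the first of 2 annotated starts).
Pfkp: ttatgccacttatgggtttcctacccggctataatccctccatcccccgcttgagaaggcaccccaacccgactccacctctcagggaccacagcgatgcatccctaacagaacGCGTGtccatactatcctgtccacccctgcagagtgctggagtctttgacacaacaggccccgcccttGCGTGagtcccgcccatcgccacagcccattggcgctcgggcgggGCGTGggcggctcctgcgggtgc
Eno2: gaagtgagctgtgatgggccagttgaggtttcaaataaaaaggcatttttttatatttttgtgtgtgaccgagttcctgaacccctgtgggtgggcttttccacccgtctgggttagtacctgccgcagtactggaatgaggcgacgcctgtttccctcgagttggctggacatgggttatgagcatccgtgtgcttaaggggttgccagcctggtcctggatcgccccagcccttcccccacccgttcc
Aldoa, first start: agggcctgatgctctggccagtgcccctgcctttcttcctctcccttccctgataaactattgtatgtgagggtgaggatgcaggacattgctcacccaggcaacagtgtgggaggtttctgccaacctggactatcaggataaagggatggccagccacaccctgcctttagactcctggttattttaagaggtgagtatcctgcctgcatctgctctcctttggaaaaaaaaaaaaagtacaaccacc
Aldoa, second start: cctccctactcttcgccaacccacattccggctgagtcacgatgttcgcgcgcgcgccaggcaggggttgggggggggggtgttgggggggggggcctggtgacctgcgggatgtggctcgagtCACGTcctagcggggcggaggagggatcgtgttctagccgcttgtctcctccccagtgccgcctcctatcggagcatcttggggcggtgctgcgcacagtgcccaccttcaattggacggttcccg
Hk2: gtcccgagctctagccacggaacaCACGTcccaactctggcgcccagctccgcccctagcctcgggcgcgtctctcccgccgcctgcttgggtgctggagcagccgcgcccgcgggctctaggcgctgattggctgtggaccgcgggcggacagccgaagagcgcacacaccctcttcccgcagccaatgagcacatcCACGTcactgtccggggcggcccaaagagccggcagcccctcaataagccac
Ldha: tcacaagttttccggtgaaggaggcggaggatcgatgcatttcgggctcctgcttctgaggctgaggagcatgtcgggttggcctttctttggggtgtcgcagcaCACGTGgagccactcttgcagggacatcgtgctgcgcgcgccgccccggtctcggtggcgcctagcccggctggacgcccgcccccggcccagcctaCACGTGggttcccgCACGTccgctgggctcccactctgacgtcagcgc

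The window of *Pfkp* holds GCGTG in 3 places and no ACGTG, and that of *Eno2* holds neither. For *Aldoa* the first window holds neither, and ACGTG stands once in each of the other 2, which overlap. The window of *Hk2* holds ACGTG in 2 places, and that of *Ldha* in 3 places, 2 of them the palindrome CACGTG, which has the core on each strand. RefSeq windows were found for 39 of the 43 members, 58 windows in all. ACGTG stood in 24 of these 58 (41.4%) and in 16.6% of all 32851 windows of this length. Windows of 1 gene can overlap and hold the same match, so they are not independent. *Ogdh* alone had 6 windows, each with ACGTG. Member windows were not matched to the others for GC content. GCGTG stood in 50% of member windows and 28.2% of all, and either form in 72.4% and 38.6%. Among members with a window, ACGTG was found in at least 1 window for 11 of the 24 called higher at P30 in WT, 2 of the 3 called lower and 3 of the 9 not called, and either form for 20, 3 and 6 of them. GGGCGG, the GC box, stood in 46.6% of member windows and 32.7% of all, and the NRF1 site in 5.17% and 3.74%. TNAAGGTCA, the site of estrogen-related receptors, was in no member window and in 1.14% of all. The MEF2 site was likewise in none, against 2.92% of all. Both strands were searched. ACGTG and GCGTG can share at most 1 base with each other or with GGGCGG and 2 with TNAAGGTCA, and GCGTG can lie within the NRF1 site. A match or its absence describes only these letters in these windows.

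Most members were higher at P30 than at P1. In WT hippocampus 27 of the 39 tested members were higher at P30 and 3 were lower at an adjusted p under 0.05, and 9 did not pass. Over all 14777 probes, 28% were higher and 31.7% lower. The median log2 fold change of the members was 0.69, against -0.03 over all probes. The arrays of the ages did not overlap for 29 of 39 members in each genotype, where 53.1% of all probes in WT and 52.5% in *Mef2c*-het mice had none. Of the 20 members at or above the members' median signal 16 were higher, and of the 1766 probes at or above that signal 33.5% were. In *Mef2c*-het hippocampus, on arrays that the WT comparison does not use, 30 members were higher, 2 lower and 7 not called, with a median of 0.75. There 26.9% of all probes were higher and 31.4% lower. Without the 5 arrays of the smaller clusters, a setting chosen after seeing the data, 28 members were higher and 2 lower in WT, and 31 higher and 3 lower in *Mef2c*-het mice.

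The age difference was shared by the genotypes. The 26 members called higher in both genotypes compare with 24.4% of all probes called so, and 36 of 39 members had the same sign in both. *Hk2* and *Ldha* were lower in both. *Pgk1* was called higher in WT alone, *Idh2* lower in WT alone, and *Pdhb*, *Cs*, *Sucla2* and *Mdh1* higher in *Mef2c*-het mice alone. *Dld*, *Pdk1*, *Fh1*, *Mdh2* and *Pcx* passed in neither. The difference between the genotypes' age effects passed for no member, so a call in 1 genotype does not set the genotypes apart.

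**Figure D1:**
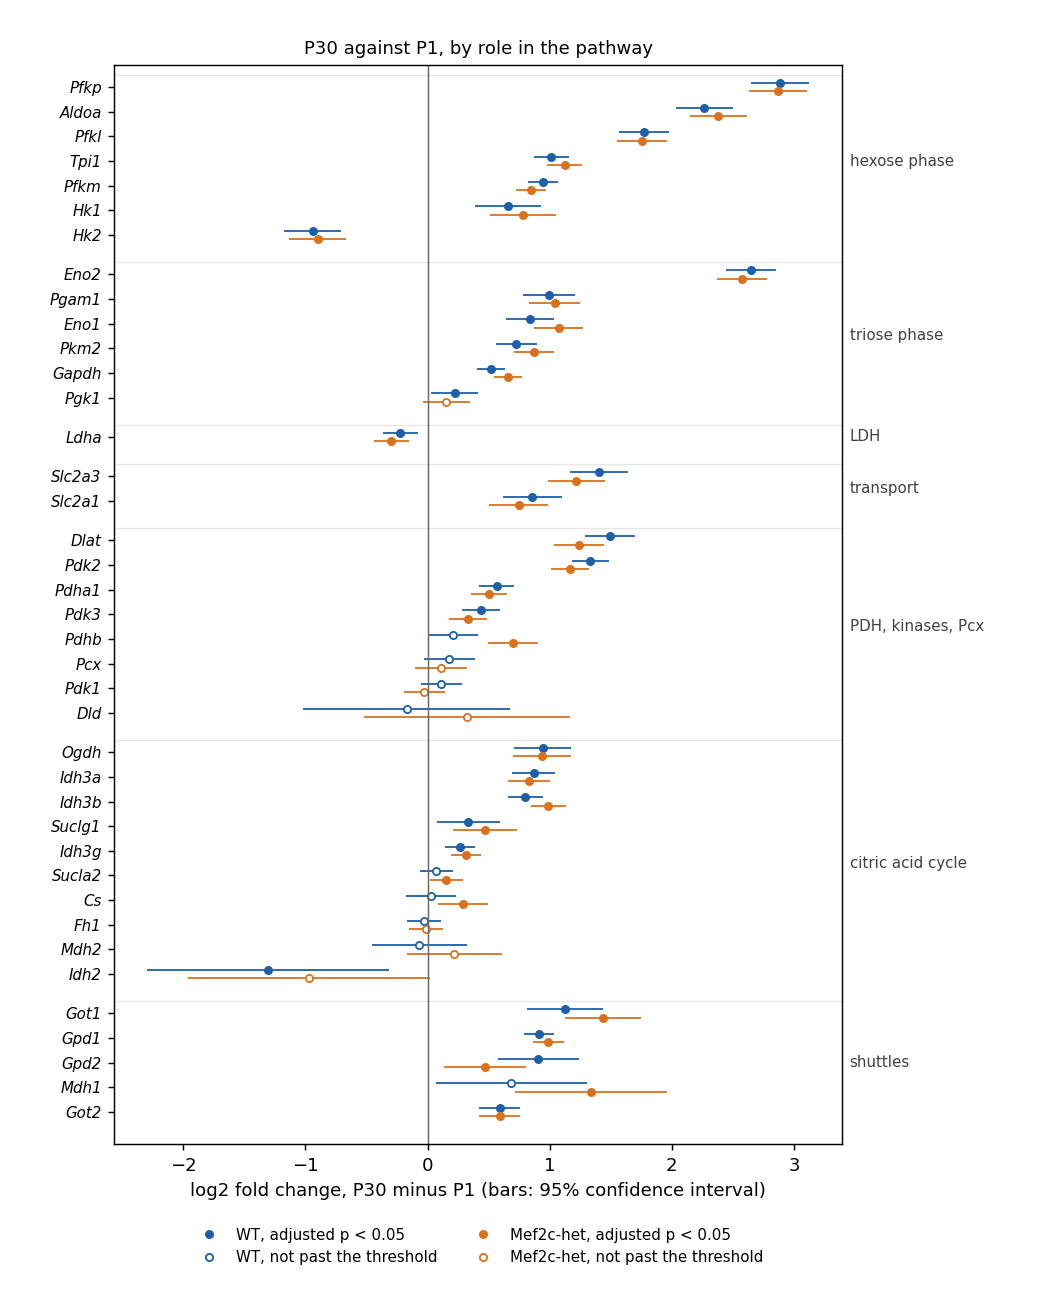
Log2 fold change of the 39 tested members between P30 and P1 (x axis) in WT (blue) and *Mef2c*-het (orange) hippocampus, grouped by role (labels at right) and ordered by the WT value within a role. Bars are 95% confidence intervals, and filled points passed an adjusted p of 0.05. *Pfkp*, *Eno2* and *Aldoa* stand at over 2 in both genotypes, *Hk2* and *Ldha* lie left of 0, and the widest bars belong to *Idh2*, *Dld* and *Mdh1*.

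The tissue itself changed between these ages, and markers of its cell types moved with age, some up like most members and others down. At P30 in WT, 5 of 5 tested neuron markers, 7 of 7 astrocyte markers, 7 of 7 oligodendrocyte markers and 5 of 6 microglia markers were higher, and 4 of 4 markers of proliferating cells were lower. Over all probes, 28% were higher and 31.7% lower in WT, and 26.9% and 31.4% in *Mef2c*-het mice. Some markers passed the detection filter mainly at the age where they were high, which in part fixed their direction. *Mog* and *Mobp*, detected on 8 arrays, had WT P1 means of 7.07 and 7.10, and *S100b*, detected on 5, of 7.02. *Cdk1* and *Ccnb1*, detected on 9, had WT P30 means of 7.21 and 7.24. Of 4 tested endothelium markers, 1 was higher and 2 were lower in WT, and 1 was higher and 3 were lower in *Mef2c*-het mice. The summed neuron markers went from 12.76 to 13.20 (log2, range over arrays) at P1 to 15.21 to 15.35 at P30 in WT, and from 12.87 to 13.08 to 15.13 to 15.31 in *Mef2c*-het mice. The summed oligodendrocyte markers went from 10.38 to 10.61 to 16.03 to 16.24 in WT, and from 10.34 to 10.56 to 15.98 to 16.24 in *Mef2c*-het mice. Astrocyte markers went from 14.42 to 14.64 to 15.34 to 15.41 in WT, and from 14.48 to 14.70 to 15.25 to 15.39 in *Mef2c*-het mice. Proliferation markers fell from 11.37 to 11.66 to 9.50 to 9.60 in WT, and from 11.35 to 11.68 to 9.48 to 9.62 in *Mef2c*-het mice. *Nefl* and *Snap25* among the neuron markers, *Itgam* among the microglia markers and *Ccna2* among the proliferation markers were not tested. Endothelium markers went from 12.17 to 12.45 to 11.60 to 11.76 in WT, and from 12.24 to 12.42 to 11.41 to 11.69 in *Mef2c*-het mice. *Cdh5* and *Kdr* were not tested. Each sum adds the linear signals of every marker with a probe, tested or not, so the brightest probe weighs most. For endothelium that is *Cldn5*, while *Flt1* went from a mean of 8.75 to 9.95 in WT. Choroid plexus markers, tissue that may adhere to a dissected hippocampus, varied widely between arrays of 1 group, for example from 10.36 to 14.44 in WT at P30. In bulk tissue, fewer cells of a type and less RNA per cell cannot be told apart, and the part of cell makeup in the members' age differences was not tested.

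The hexose phase held the largest single change, that of *Pfkp*. It had 6 members that were higher at P30 and 1 that was lower, in each genotype. Of all probes, 28% were higher and 31.7% lower in WT, and 26.9% and 31.4% in *Mef2c*-het mice. All 7 were free of overlap between the ages, as were 53.1% of all probes in WT and 52.5% in *Mef2c*-het mice. *Pfkp*, the platelet-type phosphofructokinase that the brain also uses, read 8.37, 8.09, 7.89 and 8.12 on the WT P1 arrays and 11.03, 10.98, 10.95 and 11.05 on the WT P30 arrays. The *Mef2c*-het arrays gave 8.08, 7.81, 8.20 and 8.17 at P1 and 10.79, 10.97, 10.76 and 11.22 at P30. Every P30 array thus stood far above every P1 array. The log2 fold change was 2.88 ± 0.113 (SE; adjusted p = 2.29e-12) in WT and 2.87 ± 0.113 in *Mef2c*-het mice. The other 2 *Pfkp* probes also rose, by 1.49 and 0.28 in WT, so that the size of the rise depended on the probe.

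*Pfkl*, the liver-type phosphofructokinase, read 10.86, 10.55, 10.67 and 10.95 in WT at P1 and 12.40, 12.46, 12.60 and 12.64 at P30. The *Mef2c*-het arrays read 10.75, 10.74, 10.77 and 10.88 at P1 and 12.34, 12.52, 12.55 and 12.76 at P30. The ages did not overlap, and the rise was 1.77 ± 0.0965 in WT (adjusted p = 1.31e-10) and 1.76 ± 0.0965 in *Mef2c*-het mice. Its second probe rose by 0.46 in each genotype. *Pfkm*, the muscle-type enzyme, rose by 0.95 in WT and 0.85 in *Mef2c*-het mice, and its other 2 probes by 1.19 and 0.90 in WT.

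*Aldoa*, the aldolase that cleaves the hexose into trioses, read 11.29, 11.37, 11.25 and 11.12 in WT at P1 and 13.44, 13.67, 13.45 and 13.53 at P30. On the *Mef2c*-het arrays it read 10.98, 10.91, 11.31 and 11.24 at P1 and 13.61, 13.49, 13.69 and 13.18 at P30. All P30 arrays were higher than all P1 arrays, by 2.27 ± 0.11 in WT (adjusted p = 3.02e-11) and 2.38 ± 0.11 in *Mef2c*-het mice. *Tpi1*, which interconverts the trioses, rose by 1.01 in WT and 1.13 in *Mef2c*-het mice, with its other 2 probes at 0.84 and 0.79 in WT.

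The hexokinases, which trap glucose in the cell by phosphorylating it, moved in opposite directions. *Hk1* read 8.62, 8.78, 8.56 and 8.31 in WT at P1 and 9.40, 9.36, 9.13 and 9.02 at P30. It was higher on every P30 array, by 0.66 ± 0.128 in WT (adjusted p = 0.00028) and 0.78 ± 0.128 in *Mef2c*-het mice. *Hk2* read 10.08, 9.76, 9.75 and 10.10 in WT at P1 and 8.91, 8.88, 9.03 and 9.11 at P30. In *Mef2c*-het mice it read 9.90, 9.98, 9.77 and 10.24 at P1 and 9.00, 9.16, 8.90 and 9.22 at P30. Every P30 array was below every P1 array, and *Hk2* fell by 0.94 (SE 0.111; adjusted p = 1.62e-06) in WT and by 0.90 (SE 0.111; adjusted p = 2.74e-06) in *Mef2c*-het mice.

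In the triose phase 6 of 6 members were higher in WT and 5 of 6 in *Mef2c*-het mice. Among all probes, 28% and 26.9% were higher. *Eno2*, the enolase of neurons, read 11.55, 11.04, 11.14 and 11.37 in WT at P1 and 13.86, 14.03, 13.83 and 13.98 at P30. The *Mef2c*-het arrays read 11.25, 11.26, 11.22 and 11.50 at P1 and 13.93, 13.81, 13.91 and 13.89 at P30. The ages lay far apart, with a rise of 2.65 ± 0.0969 (adjusted p = 1.09e-12) in WT and 2.58 ± 0.0969 in *Mef2c*-het mice. *Eno1*, the ubiquitous enolase, rose by 0.84 in WT and 1.07 in *Mef2c*-het mice.

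*Pgam1*, a phosphoglycerate mutase, rose by 0.99 in WT and 1.04 in *Mef2c*-het mice. *Pkm2*, the table's name for pyruvate kinase of muscle and brain, rose by 0.73 and 0.87; the deposited table does not say which splice form the probe reads. *Gapdh*, the dehydrogenase often used as a reference gene, rose by 0.52 ± 0.0529 in WT and 0.66 ± 0.0529 in *Mef2c*-het mice, and its second probe by 0.53 in WT. It was also the member with the smallest spread between arrays of 1 group, with an SD of 0.0557. *Pgk1*, a phosphoglycerate kinase, was higher by 0.22 ± 0.0911 in WT (adjusted p = 0.0451), a call that was lost without the 5 arrays of the smaller clusters, where the difference was 0.09, and lost in 7 of the 16 leave-1-out fits. *Tpi1*, *Eno2* and *Gapdh*, which all rose, have starts within 396 kb of each other on chromosome 6.

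*Ldha*, the subunit of lactate dehydrogenase that favours the making of lactate, was lower at P30. In WT it read 13.32, 13.13, 13.25 and 13.32 at P1 and 13.01, 13.03, 13.06 and 13.03 at P30. *Mef2c*-het mice had 13.20, 13.28, 13.39 and 13.47 at P1 and 13.03, 13.08, 12.92 and 13.12 at P30. The ages did not overlap in either genotype, although the fall was small, 0.22 in WT (SE 0.0672, adjusted p = 0.00938) and 0.30 in *Mef2c*-het mice (SE 0.0672, adjusted p = 0.0012). The 6 triose phase members before it in the pathway were all higher in WT. In WT the adjusted p rose to 0.114 with cyclic loess and to 0.0526 without the 5 arrays of the smaller clusters.

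The glucose carriers were both higher at P30. *Slc2a3*, the high-affinity carrier of neurons, read 10.77, 10.37, 10.72 and 10.96 in WT at P1 and 12.20, 12.03, 12.05 and 12.14 at P30. *Mef2c*-het arrays read 10.85, 10.82, 10.57 and 11.05 at P1 and 11.96, 12.03, 12.02 and 12.15 at P30. The rise was 1.40 ± 0.111 (adjusted p = 1.33e-08) in WT and 1.22 ± 0.111 in *Mef2c*-het mice, with no overlap. *Slc2a1*, the carrier of the blood-brain barrier and of astrocytes, rose by 0.86 ± 0.113 in WT and 0.75 ± 0.113 in *Mef2c*-het mice. The 4 tested endothelium markers did not move together in WT. The mean of *Cldn5* went from 11.88 to 10.42, *Tek* from 8.81 to 8.48 and *Pecam1* from 7.91 to 7.78. That of *Flt1* went from 8.75 to 9.95.

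**Figure D2:**
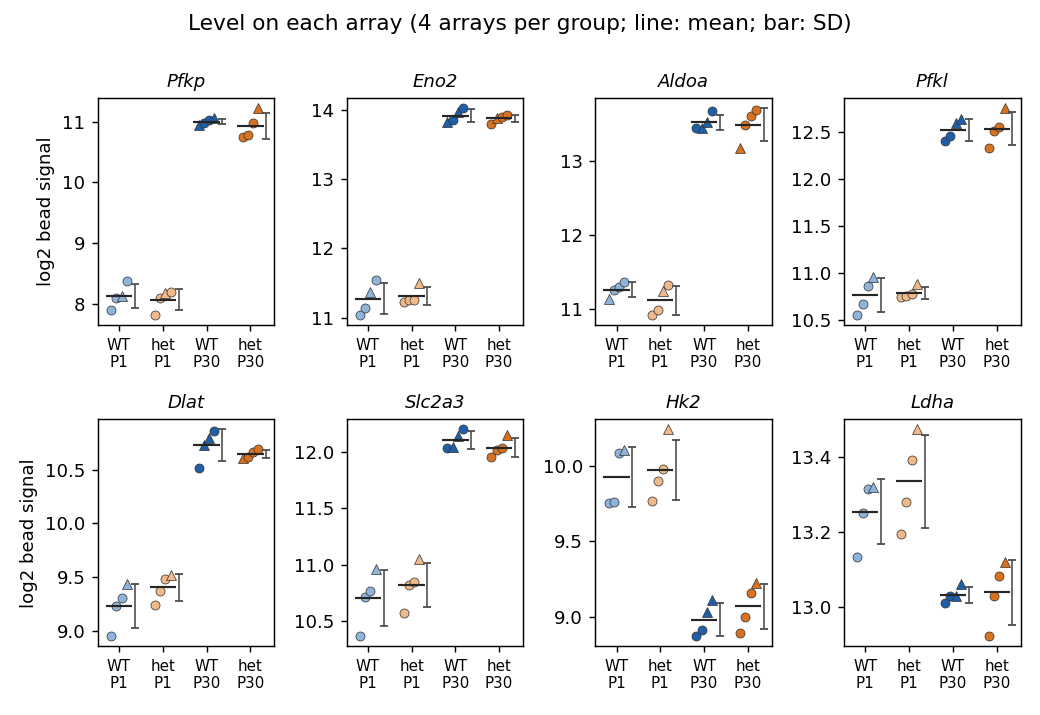
Log2 bead signal (y axis, a separate scale in each panel) of 8 members on each of the 16 arrays, by genotype and age. Lines are group means, bars are SD over 4 arrays, and triangles are the 5 arrays of the smaller clusters. In *Pfkp*, *Eno2*, *Aldoa*, *Pfkl*, *Dlat* and *Slc2a3* all P30 arrays lie above all P1 arrays, in *Hk2* and *Ldha* all lie below, and the genotypes overlap at each age.

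At the entry of pyruvate into the cycle the members divided. In WT 4 of 8 were higher and 4 were not called, and in *Mef2c*-het mice 5 of 8 were higher. The share of all probes that were higher was 28% in WT and 26.9% in *Mef2c*-het mice. *Dlat*, the acetyltransferase core of the pyruvate dehydrogenase complex, read 9.23, 8.95, 9.30 and 9.43 in WT at P1 and 10.86, 10.52, 10.79 and 10.73 at P30. The *Mef2c*-het values were 9.37, 9.48, 9.24 and 9.52 at P1 and 10.66, 10.61, 10.69 and 10.61 at P30. It rose by 1.50 ± 0.0965 (adjusted p = 1.09e-09) in WT and 1.24 ± 0.0965 in *Mef2c*-het mice, without overlap. *Pdha1*, the catalytic alpha subunit, rose by 0.57 and 0.50. *Pdhb*, its beta partner, had a difference of 0.21 ± 0.0968 in WT (adjusted p = 0.0774) and rose by 0.70 ± 0.0968 in *Mef2c*-het mice (adjusted p = 9.71e-06).

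Of the kinases that switch the complex off, *Pdk2* changed most. It read 7.60, 7.58, 7.50 and 7.61 in WT at P1 and 8.76, 8.79, 9.08 and 8.98 at P30, and 7.61, 7.52, 7.49 and 7.71 against 8.67, 8.77, 8.76 and 8.79 in *Mef2c*-het mice. The ages were wide apart, by 1.33 ± 0.0722 in WT (adjusted p = 1.22e-10) and 1.17 ± 0.0722 in *Mef2c*-het mice. *Pdk3* rose by 0.44 ± 0.0736 and 0.33 ± 0.0736. *Pdk1* had a difference of 0.11 in WT and -0.03 in *Mef2c*-het mice, neither past the threshold. *Pcx*, pyruvate carboxylase, which refills the cycle and in brain belongs to astrocytes, had differences of 0.18 and 0.11, not called.

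The citric acid cycle moved less than glycolysis. In WT 5 of 10 members were higher and 1 lower, with a median log2 fold change of 0.17, and in *Mef2c*-het mice 7 of 10 were higher, with a median of 0.30. Of all probes, 28% were higher and 31.7% lower in WT, and 26.9% were higher in *Mef2c*-het mice. The hexose phase had medians of 1.01 and 1.12, and the triose phase 0.78 and 0.96. The difference between these medians is a description and was not tested. The members that rose were the 3 subunits of the NAD-dependent isocitrate dehydrogenase, the oxoglutarate dehydrogenase and a succinyl-CoA ligase subunit. *Ogdh* rose by 0.94 in each genotype, *Idh3a* by 0.87 and 0.83, *Idh3b* by 0.80 and 0.99, *Idh3g* by 0.27 and 0.31 and *Suclg1* by 0.33 and 0.47, WT before *Mef2c*-het. The second *Idh3g* probe, at 0.16 in WT, was not called there.

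*Cs*, citrate synthase, which opens the cycle and often stands for the amount of mitochondria, had a difference of 0.02 ± 0.0964 in WT (95% interval -0.18 to 0.23). In *Mef2c*-het mice it was called higher by 0.29 ± 0.0964 (adjusted p = 0.0175), with overlapping arrays and with the call lost under median scaling (adjusted p = 0.221). *Fh1*, fumarase, lay at -0.03 and -0.01, with intervals of -0.17 to 0.11 in WT and -0.15 to 0.13 in *Mef2c*-het mice. *Mdh2*, the malate dehydrogenase of the mitochondrion, had differences of -0.07 and 0.22, not called. *Sucla2*, the ATP-forming ligase subunit, was close to background: it was detected on 1 WT P1 array, 1 WT P30 array, 2 *Mef2c*-het P30 arrays and no *Mef2c*-het P1 array. Its call in *Mef2c*-het mice (adjusted p = 0.0484) had measured means of 7.18 at P1 and 7.33 at P30. With the P1 arrays raised to the lowest detected signal, the P30 level was 1.01-fold higher. This is no lower bound, since not every P30 array was above background. That call was lost with the replicate number as a block (adjusted p = 0.0531), with the array cluster as a block (0.0844) and in 8 leave-1-out fits (0.0519 to 0.111).

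The shuttles between cytosol and mitochondrion were higher for 4 of 5 members in WT and 5 of 5 in *Mef2c*-het mice. Among all probes, 28% and 26.9% were higher. *Got1*, the cytosolic aspartate aminotransferase, read 7.94, 8.11, 7.70 and 7.61 in WT at P1 and 8.87, 9.19, 8.88 and 8.91 at P30. It rose by 1.12 ± 0.147 in WT and 1.44 ± 0.147 in *Mef2c*-het mice. *Got2*, the mitochondrial form, rose by 0.59 ± 0.0784 in each genotype. *Gpd1*, the cytosolic glycerol phosphate dehydrogenase, rose by 0.91 ± 0.0587 and 0.99 ± 0.0587, from a level near background at P1. *Gpd2*, its mitochondrial partner, rose by 0.91 ± 0.157 in WT and 0.47 ± 0.157 in *Mef2c*-het mice, while its second probe, at 0.12 and 0.11, was not called.

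Alternative enzymes of 1 step were then compared within each array. The log2 ratio of a pair has no meaning as a level, since the probes differ, but its change with age shows unequal change of its members. Of 10 pairs, 8 did not overlap between the ages in WT and 8 in *Mef2c*-het mice. The share among pairs of other probes was not computed. Of single probes, 53.1% in WT and 52.5% in *Mef2c*-het mice did not overlap, so the count sets these pairs apart from no others. With 4 arrays against 4, the smallest exact permutation p is 0.0286, and a pair without overlap has that value. Moving the ratio towards the enzyme named before the stroke, *Hk1*/*Hk2* rose by 1.60 in WT and 1.68 in *Mef2c*-het mice, *Eno2*/*Eno1* by 1.81 and 1.51, *Pdk2*/*Pdk1* by 1.22 and 1.19 and *Pdk2*/*Pdk3* by 0.90 and 0.83. *Slc2a3*/*Slc2a1* rose by 0.55 in WT without overlap and by 0.47 in *Mef2c*-het mice, where 1 array overlapped (exact permutation p = 0.0571).

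Other ratios moved the opposite way. *Pfkm*/*Pfkp* fell by 1.94 in WT and 2.02 in *Mef2c*-het mice and *Pfkm*/*Pfkl* fell by 0.82 and 0.91 on the probes of highest signal. On other probes the order differed: the second *Pfkl* probe rose by 0.46 and the third *Pfkp* probe by 0.28 in WT, both less than the 0.90 to 1.19 of the *Pfkm* probes. Both of these probes were dim, which limits their fold changes, so they do not settle the order. The third *Pfkp* probe, detected on 6 of the 16 arrays, had WT means of 7.04 at P1 and 7.32 at P30. The second *Pfkl* probe had WT means of 7.61 and 8.06. *Mdh2*/*Mdh1* fell by 0.75 and 1.12 without overlap. *Got2*/*Got1* fell by 0.85 in *Mef2c*-het mice without overlap and by 0.53 in WT with overlap (exact permutation p = 0.0571). *Gpd1*/*Gpd2* changed by 0.005 in WT and 0.52 in *Mef2c*-het mice, with overlap in both (exact permutation p = 1 and 0.0857). The *Ldhb*/*Ldha* and *Slc16a7*/*Slc16a1* pairs could not be formed.

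**Figure D3:**
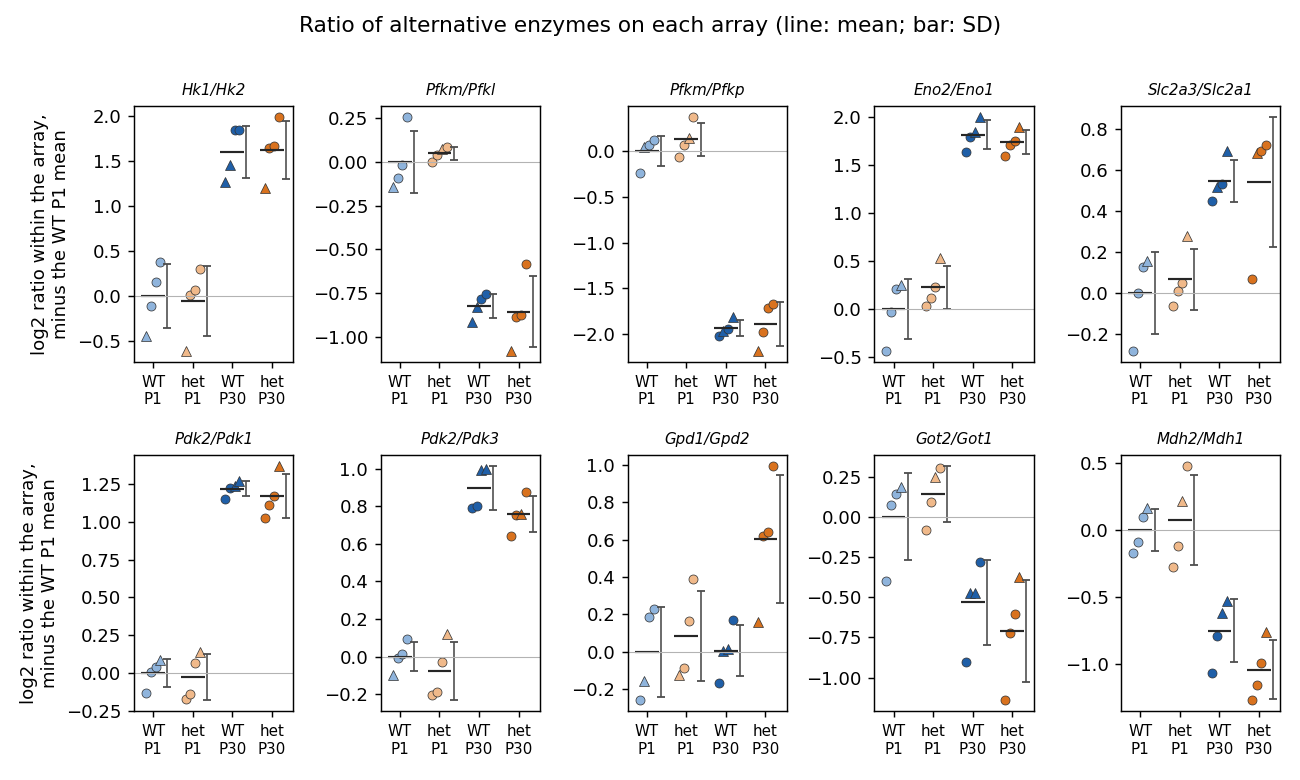
Log2 ratio of 10 pairs of alternative enzymes on each of the 16 arrays, minus the mean of the WT P1 arrays (y axis, a separate scale in each panel), by genotype and age. Lines are means, bars are SD over 4 arrays, and triangles are the 5 arrays of the smaller clusters. *Hk1*/*Hk2* and *Eno2*/*Eno1* move up and *Pfkm*/*Pfkp* moves down in both genotypes, while *Gpd1*/*Gpd2* overlaps between the ages.

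Genes of the same pathways that are not members were called about as often as probes in general. Over all probes, 28% were higher and 31.7% lower in WT, and 26.9% and 31.4% in *Mef2c*-het mice. Of 32 tested, 8 were higher and 10 lower in WT, and 9 higher and 10 lower in *Mef2c*-het mice, with medians of -0.04 and -0.02. The largest rises in WT were *Pgam2*, a phosphoglycerate mutase, at 1.86, *Aldoc*, the aldolase of astrocytes, at 1.36, and *Slc25a12*, the aspartate-glutamate carrier of the malate-aspartate shuttle, at 1.04. The largest falls were *Idh1*, the cytosolic NADP-dependent isocitrate dehydrogenase, at -2.24, *Slc25a1*, the mitochondrial citrate carrier, at -1.09, and *Pfkfb4*, which makes the activator of phosphofructokinase, at -0.76. The pentose phosphate pathway, which branches from glycolysis and yields NADPH and ribose, ran opposite to the members: 6 of 6 tested genes were lower in each genotype, with medians of -0.93 in WT and -0.81 in *Mef2c*-het mice. *Pgls* fell most, by 1.64 in WT, and *Taldo1* least, by 0.37. Of 6 glycogen genes tested, 2 were higher in WT and 1 in *Mef2c*-het mice.

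Genotype changed no member past the threshold. At P30, 0 of 39 members differed between *Mef2c*-het and WT hippocampus at an adjusted p under 0.05, where 1 of 14777 probes (0.00677%) did, and 4 members had an unadjusted p under 0.05, as had 2.84% of all probes. At P1 it was 0 of 39 members, against 2 probes in all (0.0135%), with 3 members and 2.28% of all probes under an unadjusted p of 0.05. For the difference of the age effects it was 0 members and 0 probes (0%), with 1 member and 438 probes (2.96%) at an unadjusted p under 0.05. In both genotype comparisons the 95% intervals had a median width of 0.205 to either side of the estimate, from 0.112 (*Gapdh*) to 0.989 (*Idh2*). For the difference of the age effects they were wider, with a median of 0.29, from 0.159 to 1.4. Differences within these intervals are not excluded.

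At P30 the members of smallest p were *Gpd1*, *Pdhb* and *Gpd2*. *Gpd1* read 8.22, 8.23, 8.42 and 8.27 on the WT arrays and 8.48, 8.55, 8.52 and 8.47 on the *Mef2c*-het arrays. All *Mef2c*-het arrays were higher, by 0.22 ± 0.0587 (limma adjusted p = 0.994; unadjusted 0.00184). Over all probes, 1.89% had such groups without overlap at P30, and among members they were *Gpd1* and *Fh1*, 2 of 39. *Pdhb* read 11.00, 10.99, 10.72 and 10.75 in WT and 11.15, 11.16, 11.25 and 10.96 in *Mef2c*-het mice, which overlapped, and differed by 0.27 ± 0.0968, with its second probe at 0.42 ± 0.444. *Gpd2* read 10.48, 10.82, 10.85 and 10.68 in WT and 10.27, 10.36, 9.95 and 10.74 in *Mef2c*-het mice, which also overlapped, and differed by -0.38 ± 0.157. The second *Gpd2* probe differed by 0.0021 ± 0.16, and the mean of both probes by -0.19.

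At P1 the members of smallest p were *Pgk1*, *Gpd1* and *Pdhb*. *Pgk1* read 7.70, 7.64, 7.67 and 7.73 in WT and 7.81, 7.82, 8.04 and 7.98 in *Mef2c*-het mice, the only member without overlap, where 1.42% of all probes had none. It differed by 0.23 ± 0.0911 (limma adjusted p = 1). *Gpd1* read 7.42, 7.38, 7.36 and 7.32 in WT and 7.40, 7.52, 7.57 and 7.57 in *Mef2c*-het mice, a difference of 0.14 ± 0.0587 at a level where 1 WT array was not above background. *Pdhb* read 10.82, 10.73, 10.62 and 10.47 in WT and 10.60, 10.37, 10.48 and 10.26 in *Mef2c*-het mice, a difference of -0.23 ± 0.0968. Its second probe stood at 0.08 ± 0.444, and the mean of both probes differed by -0.07, so the opposite signs at P1 and P30 were seen on the brighter probe and not on the other.

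The 3 members of smallest p for the difference of the age effects were *Pdhb* at 0.49 ± 0.137, *Gpd2* at -0.44 ± 0.222 and *Idh3b* at 0.19 ± 0.0943, each with a limma adjusted p of 0.998. Without the 5 arrays of the smaller clusters the *Pdhb* value was 0.43 ± 0.121. The second *Pdhb* probe, which varied with the array cluster, had age differences of -0.14 ± 0.444 in WT and 0.19 ± 0.444 in *Mef2c*-het mice. For *Gpd2* the second probe, which was near background, gave a difference of -0.02 ± 0.227. *Gpd1* had a single probe.

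**Figure D4:**
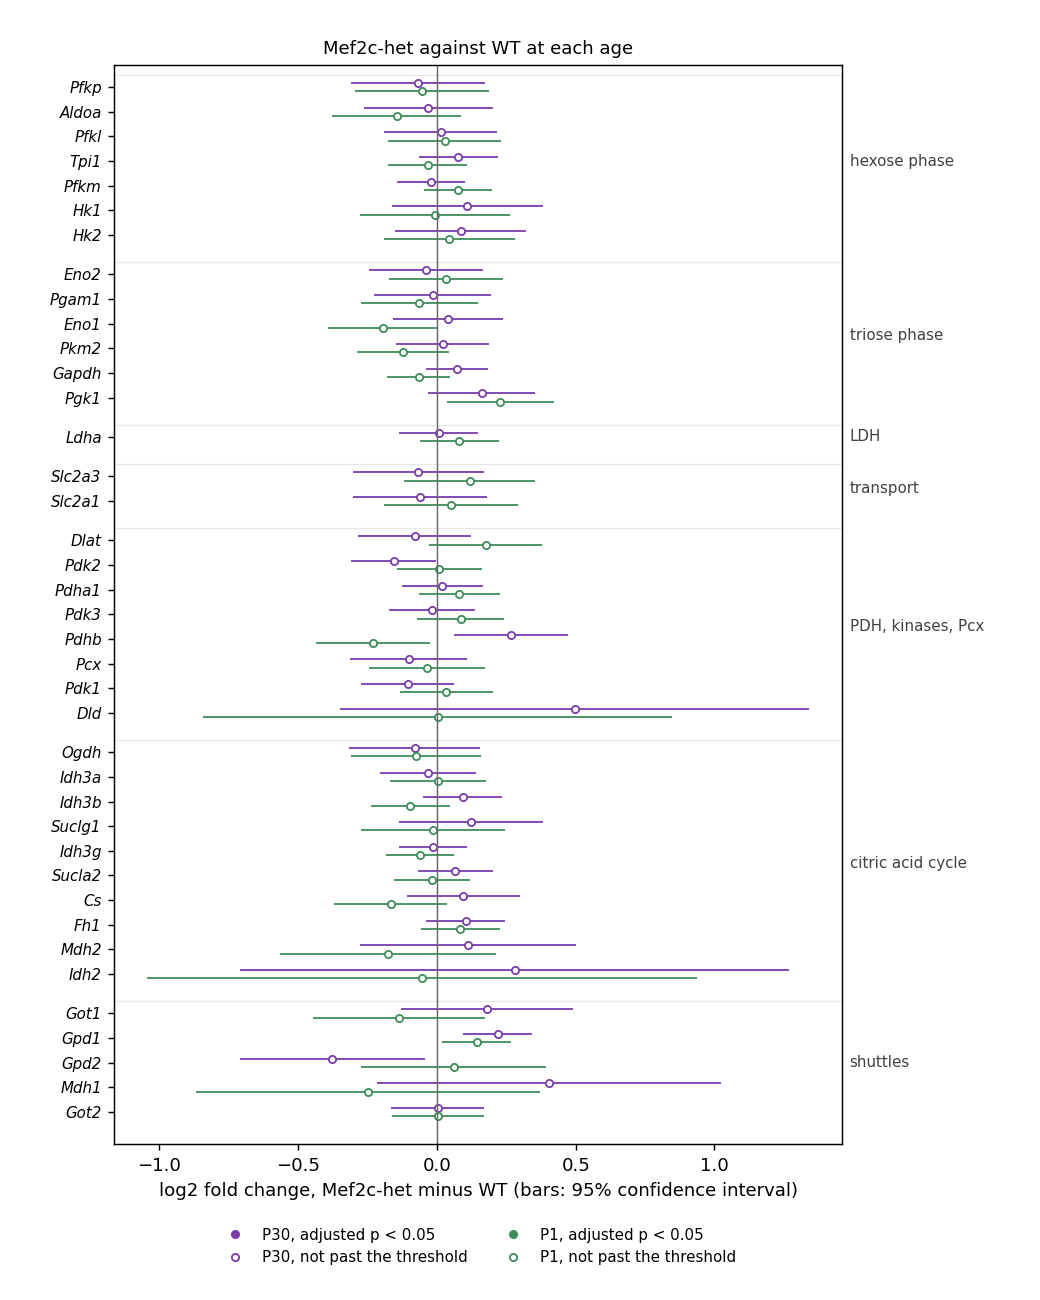
Log2 fold change of the 39 tested members between *Mef2c*-het and WT hippocampus (x axis) at P30 (purple) and P1 (green), in the order of the plot of age effects. Bars are 95% confidence intervals, and open points did not pass an adjusted p of 0.05, which is all of them. Most intervals span 0, and *Gpd1* stands right of 0 at both ages.

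*Idh2*, *Dld*, *Mdh1* and *Mdh2*, of which *Mdh1* is cytosolic and the others mitochondrial, had the largest spreads of the members between arrays of 1 group. *Mdh2* was close to the next members, *Gpd2* with an SD of 0.25 and *Got1* with 0.23. The SD between arrays of a group was 0.75 for *Idh2*, which lay at the 99.6th percentile of all tested probes, 0.64 for *Dld* (99.1), 0.47 for *Mdh1* (97.6) and 0.29 for *Mdh2* (93.9), against a median of 0.14 over the members and 0.12 over all probes. *Idh2*, the mitochondrial NADP-dependent isocitrate dehydrogenase, read 10.19, 10.78, 10.96 and 9.16 in WT at P1 and 9.85, 9.36, 8.32 and 8.35 at P30. In *Mef2c*-het mice it read 10.65, 10.74, 10.38 and 9.10 at P1 and 9.52, 9.48, 9.74 and 8.25 at P30. The lowest arrays of each group were those of the smaller clusters.

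*Dld*, the dihydrolipoyl dehydrogenase shared by the pyruvate and oxoglutarate complexes, was detected on the 11 arrays of the larger clusters, at 7.80 to 8.89, and on none of the other 5, at 7.19 to 7.32. The deviations of *Idh2*, *Dld*, *Mdh1* and *Mdh2* from their group means went together across the 16 arrays, with Pearson's r of 0.83 to 0.94, and those of *Gpd2* went against them, with r of -0.66 to -0.78. These arrays share their cluster, so the coefficients describe that split and carry no test. The second *Pdhb* probe split the same way, at 7.37 to 7.63 on the 5 arrays and 8.23 to 9.21 on the other 11. What set the clusters apart was not tested.

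Because the groups held 1, 1, 2 and 1 arrays of the smaller clusters, the age differences of these members were also read within each cluster. In the larger clusters *Idh2* ran from 10.19 to 10.96 at P1 and from 9.36 to 9.85 at P30. In the smaller clusters it ran from 9.10 to 9.16 and from 8.26 to 8.35. The ages did not overlap within either, and the difference was -1.03 and -0.82. Over all arrays the ages overlapped, with a fall of 1.30 (SE 0.466; adjusted p = 0.0239) in WT and a difference of -0.97 (SE 0.466; adjusted p = 0.0868) in *Mef2c*-het mice. Without the 5 arrays the fall was 1.04 (SE 0.196; adjusted p = 0.000363) in WT and 1.01 (SE 0.175; adjusted p = 0.00016) in *Mef2c*-het mice.

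*Mdh1*, the cytosolic malate dehydrogenase, read 9.00, 9.11, 9.38 and 8.52 in WT at P1 and 10.11, 10.20, 9.23 and 9.23 at P30. In *Mef2c*-het mice it read 9.02, 8.44, 9.17 and 8.40 at P1 and 10.31, 10.20, 10.57 and 9.30 at P30. It was not called in WT (0.69 ± 0.292; adjusted p = 0.0536) and was called in *Mef2c*-het mice (1.34 ± 0.292; adjusted p = 0.000855), while its second probe was called in both, at 0.72 and 1.10. Without the 5 arrays it rose by 0.99 ± 0.182 in WT (adjusted p = 0.000299) and 1.50 ± 0.163 in *Mef2c*-het mice. *Mdh2* was then at 0.11 ± 0.116 in WT and 0.31 ± 0.104 in *Mef2c*-het mice (adjusted p = 0.448 and 0.0176), and *Dld* at 0.19 ± 0.221 and 0.41 ± 0.198, not called.

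**Figure D5:**
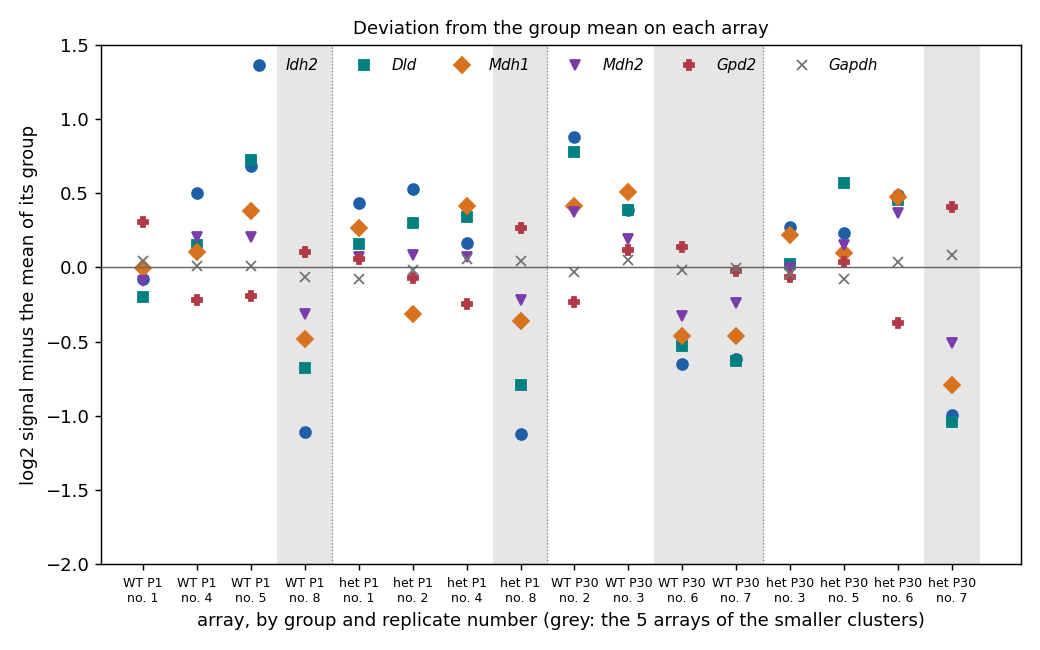
Log2 signal of 6 members minus the mean of their group (y axis) on each of the 16 arrays (x axis, by group and replicate number); grey bands mark the 5 arrays of the smaller clusters. *Idh2*, *Dld*, *Mdh1* and *Mdh2* lie below 0 in every grey band, whereas *Gapdh*, the member of smallest spread, stays near 0 throughout.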

How the data were processed

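The members and gene lists were chosen with earlier results of these data known. The authors deposited, for each of 25697 probes on each of 16 arrays, a linear bead-averaged intensity without between-array normalization and a detection p-value from the negative controls, with the bead standard error and bead number. Whether a background was subtracted is not given in the sources used here. The submitters' processing notes name lumi and limma, and the study states log2 and quantile normalization.

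Here log2 of the intensity was quantile normalized over all 16 arrays with R 4.3.3 and limma 3.58.1. The 14777 probes detected (p under 0.05) on 4 or more arrays were fitted with lmFit and eBayes as 4 groups, with two-sided p-values and Benjamini-Hochberg adjustment over these probes. Intervals are at 95%. The joint fit gives every member a single scale; the 8 arrays of a comparison alone were an alternative. Exact permutation tests over arrays took all 70 ways to divide 8 arrays 4 against 4. Probes were named through RefSeq for 25376 of 25697. The fit of the WT age comparison alone was tested on simulated data, with values independent between arrays and thus no array clusters. The number of arrays limits the precision.

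Named are every member, with full values for the 6 largest rises and the falls in WT, isoform pairs, and the 3 members of smallest p in each genotype comparison and for the difference of age effects. Array clusters were cut from average linkage on 1 minus Pearson's r within each age. Alternatives were normexp background correction (offset 16), cyclic loess, median scaling, a detection p under 0.01, no filter, trend and robust variances, the mean of a gene's probes, the replicate number and the array cluster as blocks, and leaving out each array.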

Additional observations from a re-analysis of the deposited data

Results flagged for a closer look

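In groups of 4 arrays, the gap of the highest or lowest array to its neighbour was set against the range of the group. Of 160 such groups (39 members and the second *Pdhb* probe, 4 groups each), 9 exceeded Dixon's critical value for 4 values, where chance gives about 1 in 20, or 8. On *Mef2c*-het P1 replicate 8, *Eno2* stood above the other arrays with its neighbour at 11.26 (gap 0.871 of the range) and *Ogdh* at 9.76 against 9.38 (0.85), while *Dld* stood below at 7.20 against 8.15 (0.84) and *Mdh2* at 10.90 against 11.19 (0.938). On WT P1 replicate 8, *Cs* stood below at 11.32 against 11.69 (0.846) and *Suclg1* at 12.03 against 12.41 (0.952). On *Mef2c*-het P30 replicate 7, *Idh3g* stood above at 12.86 against 12.73 (0.913). These 7 lay on arrays of the smaller clusters. The other 2 were *Fh1* on *Mef2c*-het P30 replicate 3, above at 11.52 against 11.46 (0.954), and *Got1* on WT P30 replicate 3, above at 9.19 against 8.91 (0.86). Why these arrays stood apart was not tested.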

How the results depend on the processing

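No member changed direction among those named for a comparison, and every count of members called stayed within 1.5 times its value under the alternatives run. The alternatives other than leaving out arrays gave 27 to 32 members called with age in WT (30 as reported) and 29 to 33 in *Mef2c*-het mice (32 as reported). Leaving out each array in turn gave 28 to 31 and 30 to 33. Genotype comparisons and the difference of age effects kept 0 members called throughout, and isoform pairs without overlap numbered 8 to 10 in WT and 8 to 9 in *Mef2c*-het mice, or 10 in the latter without the 5 arrays of the smaller clusters. *Idh2* in WT lost its call under median scaling (adjusted p = 0.0501) and without WT P1 replicate 4 or 5 or WT P30 replicate 6 or 7 (0.0704 to 0.0771). *Suclg1* in WT lost its call under median scaling (0.228) and without WT P1 replicate 8 (0.0977), WT P30 replicate 2 (0.0771) or replicate 3 (0.0602). *Gpd2* in *Mef2c*-het mice lost it without P1 replicate 4 (0.0597) or P30 replicate 7 (0.064), and *Pdhb* there with the mean of its probes (0.155). Median scaling also ended the calls of *Pdk3* (0.0917) and *Suclg1* (0.0832) in *Mef2c*-het mice and *Idh3g* in WT (0.0582). The mean of a gene's probes lowered *Pfkp* in WT from 2.88 to 1.55 and *Pfkl* from 1.77 to 1.11, and moved *Gpd2* at P30 from -0.38 to -0.19 and *Pdhb* at P1 from -0.23 to -0.07 between the genotypes. Normexp raised *Pfkp* in WT to 3.65, *Got1* in *Mef2c*-het mice from 1.44 to 2.37, and the genotype differences of *Gpd1* from 0.14 to 0.46 at P1 and 0.22 to 0.35 at P30 and of *Pgk1* at P1 from 0.23 to 0.50, and cyclic loess took *Ldha* in WT from -0.22 to -0.12. The cause was not tested. Samples with the same replicate number did not all deviate together (r of 0.09 to 0.82 at P1 and -0.52 to 0.70 at P30), and each array matched its own number best in 3 of 3 pairs at P1 and 1 of 3 at P30, so the numbers were not taken to pair the samples. With the replicate number as a block, 32 members were called in WT and 31 in *Mef2c*-het mice, and 0 in each genotype comparison (consensus correlation 0.251). Dim probes such as *Sucla2*, *Gpd1* at P1 and *Dld* lie near background, which limits their fold changes.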

Other observations

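Other genes of these pathways, chosen here after their values were seen, moved with age as follows, as log2 differences. *Pdk4*, a further pyruvate dehydrogenase kinase, was higher at P30 by 0.73 in WT and 0.53 in *Mef2c*-het mice. The succinate dehydrogenase subunits *Sdhb* and *Sdhc* were lower in WT by -0.45 (limma adjusted p = 0.0212) and -0.41 (limma adjusted p = 0.000112), and in *Mef2c*-het mice stood at -0.08, not called, and -0.18, called. *Acly*, which cleaves exported citrate to acetyl-CoA for lipid synthesis, was lower by -0.32 and -0.53. Among glycogen genes, *Pygm*, a glycogen phosphorylase, was higher by 0.30 in each genotype, and *Ugp2*, which makes the sugar donor for glycogen, was higher by 0.46 in WT and stood at 0.22 in *Mef2c*-het mice, not called.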
